A study of Mus musculus with 12 samples.

Results

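The T and NK cell genes are 36 genes whose products build the T cell receptor and its signalling chain, the costimulatory, cytokine and killer receptors, the cytotoxic granule and the transcription factors of T lymphocytes and natural killer (NK) cells. They were found on the arrays by the gene name of each probe, with Cd27 found under its older symbol Tnfrsf7, and the brightest probe stood for a gene. All 36 had a probe, 51 probes in all, and 30 of them passed the filter on dim probes and were tested among 17042 genes. The measurements come from total RNA of the livers of male C57BL/6 mice, with 1 array per mouse and 3 biological replicates in each of 4 groups. The groups are mice labelled SIRT1+/- (Het) on a high-fat diet, SIRT1+/+ mice (WT) on a high-fat diet, Het mice on a low-fat diet and WT mice on a low-fat diet, in each case after 34 weeks. The age of the mice and the part of Sirt1 that is deleted are not given in the sources used here. The arrays hold 60-base probes read in 1 colour, Cy3, so that the brightness of a probe reports the abundance of its transcript.

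T cells recognise antigen through a receptor that signals through the CD3 chains, with CD4 or CD8 as coreceptor, and the kinases Lck and Zap70 and the adaptor Lat pass the signal on. NK cells use inhibitory and activating receptors such as those that Klrd1, Klrk1 and Ncr1 encode, and share perforin and granzymes with cytotoxic T cells. The mouse liver holds resident and passing T, NK and NKT cells, few beside the hepatocytes, and they are studied there for their part in fatty liver disease and hepatitis.

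Levels are log2 intensities relative to the 75th percentile of the array, so that 0 is that percentile and a step of 1 is a 2-fold change. Levels of different probes are not set against each other, since probes differ in brightness per transcript. Over the 12 arrays 58.0% to 71.6% of spots lay well above background. Sirt1 itself, on its brighter probe, was at -0.72, -0.67 and -0.73 in Het high-fat livers against -0.37, -0.26 and -0.17 in WT high-fat livers. It was at -0.37, -0.62 and -0.23 in Het low-fat livers against 0.23, -0.05 and -0.09 in WT low-fat livers. The genotypes did not overlap on either diet, with log2 differences of -0.44 ± 0.13 (SE) with high fat and -0.43 ± 0.13 with low fat, although neither passed after adjustment (adjusted p = 0.446 and 0.9999). Whether its probes lie in the deleted part is not known here. The list of hepatocyte markers, 7 of 8 tested, had a mean level between 6.81 and 7.46 on every array. Of the 7, 1 passed as lower on the high-fat diet in WT livers, 2 in Het livers and 2 over both genotypes. The shares of all genes that passed there, in either direction, were 5.92%, 15.9% and 30.2%. The high-fat arrays shared a scan day and the low-fat arrays another, and no slide held both diets, so diet and scan day or slide cannot be told apart in any diet difference given here.

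Of the 30 genes tested, 20 were well above background on all 12 arrays and 10 on fewer, and none was saturated. The 6 that did not pass the filter are Cd28, Ctla4 and Eomes, well above background on 0 arrays, Gzmk on 4, Ncr1 on 5 and Cd96 on 6. Of the 10 on fewer arrays, Slamf7 was well above background on 7 arrays, Klrk1 on 8, Sh2d1a on 9, Cd27, Il7r, Gzma and Prf1 on 10 each, and Cd2, Cd8a and Txk on 11. The number of arrays limits the precision.

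Between the diets 3 T and NK cell genes passed in Het livers, 0 in WT livers, and 5 when the diet difference was averaged over both genotypes. A gene that did not pass in WT livers is not thereby shown to be unchanged there. In Het livers the cell surface receptors Slamf7 and Klrd1 rose and Cd3e, a signalling chain of the T cell receptor, fell. Over both genotypes Slamf7 and Klrd1 rose, and Cd3e, Cd4 and Ptprcap, which encodes a partner of the leukocyte phosphatase CD45, fell. The share of all genes called at an adjusted p under 0.05 was 15.9% for diet in Het, 5.92% for diet in WT and 30.2% for diet over both genotypes, so the counts of 3, 0 and 5 of 30 tested are each below those shares. Of all genes, 7.6% were called higher and 8.26% lower in Het livers, and 13.4% higher and 16.7% lower over both. At an unadjusted p under 0.05 there were 6 of the 30 genes in Het livers (33.1% of all genes) and 7 over both genotypes (42.9%). In WT livers 7 of the 30 had an unadjusted p under 0.05, against 25.8% of all genes, and the lowest adjusted p was 0.085. That number was 14 without WT low-fat replicate 3 (21.1% of all genes), 3 without WT low-fat replicate 2, 2 without WT high-fat replicate 3, and 5 to 8 without any other single array. In RNA of whole liver, fewer cells of a type and less RNA per cell cannot be told apart.

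The medians of the 30 genes lay on opposite sides of 0 in the 2 genotypes. The median log2 diet difference was 0.25 in Het livers, with 24 of 30 genes above 0, against a median of -0.0043 over all genes and 49.5% of them above 0. It was -0.37 in WT livers, with 7 of 30 above 0, against a median of -0.05 over all genes and 45.2% above 0. Slamf7, Klrk1, Sh2d1a, Cd27, Il7r and Gzma passed the filter on dim probes only through high-fat groups. Each of them was above 0 in Het livers, which limits the count and the median there. Both medians moved with single arrays. Without Het low-fat replicate 1 the median in Het livers was 0.04, with 16 of 30 genes above 0, and without Het low-fat replicate 3 it was 0.41. Without WT low-fat replicate 1 the median in WT livers was -0.22, with 9 of 30 above 0. Of the 30 genes, 18 were higher on the high-fat diet in Het livers and lower in WT livers, as 13.2% of all genes were.

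**Figure D1:**
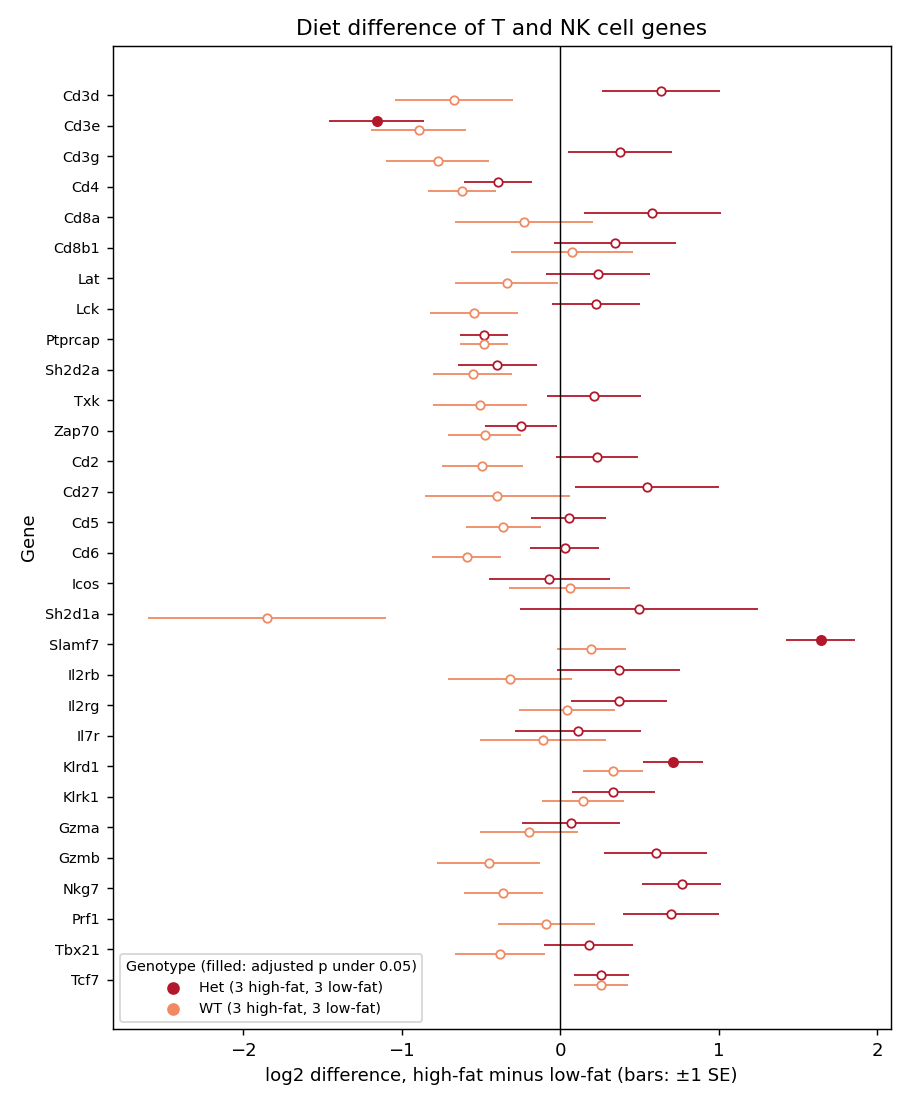
Log2 diet difference (high-fat minus low-fat) of each tested T and NK cell gene, ordered by role, in Het livers (red) and WT livers (orange), with bars of 1 SE and filled points where the adjusted p is under 0.05. The filled points are Slamf7, Klrd1 and Cd3e in Het livers, and most other genes lie right of 0 in Het and left of 0 in WT livers. The Het point of Slamf7 rests on low-fat levels that were not well above background.

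The CD3 chains carry the signal of the T cell receptor, and their genes lie side by side on chromosome 9, with the probes of Cd3g, Cd3d and Cd3e starting 12455 and 13083 bases apart on mm7. Their probes, and the RefSeq promoter windows of 250 bases before to 50 after the start (GRCm38.p6), are shown because Cd3e alone of these neighbours passed in a diet comparison. The Cd3e gene has a probe that was well above background on 12 arrays and another, starting 4730 bases away, that was well above on 0.
Cd3e probe used, chr9:44933516-44933575 (mm7): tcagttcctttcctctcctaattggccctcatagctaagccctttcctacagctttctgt
Cd3e probe not well above background, chr9:44938246-44938305 (mm7): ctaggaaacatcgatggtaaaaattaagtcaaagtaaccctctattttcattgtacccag
Cd3d probe, chr9:44920433-44920664 (mm7): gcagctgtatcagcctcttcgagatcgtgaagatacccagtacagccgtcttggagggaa
Cd3g probe, chr9:44907978-44908562 (mm7): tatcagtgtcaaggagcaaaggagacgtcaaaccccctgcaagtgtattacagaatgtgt
Cd3e promoter, chr9:45009562-45009861, minus strand: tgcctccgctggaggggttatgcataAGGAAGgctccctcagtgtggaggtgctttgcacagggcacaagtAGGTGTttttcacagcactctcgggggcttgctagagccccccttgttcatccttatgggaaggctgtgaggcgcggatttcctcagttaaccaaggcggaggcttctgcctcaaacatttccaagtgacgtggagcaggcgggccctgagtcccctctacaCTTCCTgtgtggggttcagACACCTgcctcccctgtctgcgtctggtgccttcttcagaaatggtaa
Cd3d promoter, chr9:44981536-44981835, plus strand: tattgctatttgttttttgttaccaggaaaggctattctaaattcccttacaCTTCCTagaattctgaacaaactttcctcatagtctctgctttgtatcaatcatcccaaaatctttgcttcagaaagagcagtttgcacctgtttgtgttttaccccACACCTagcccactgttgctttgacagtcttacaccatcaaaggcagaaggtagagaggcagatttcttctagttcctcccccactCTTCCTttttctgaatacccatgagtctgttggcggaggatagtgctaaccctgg
Cd3g promoter, chr9:44980382-44980681, minus strand: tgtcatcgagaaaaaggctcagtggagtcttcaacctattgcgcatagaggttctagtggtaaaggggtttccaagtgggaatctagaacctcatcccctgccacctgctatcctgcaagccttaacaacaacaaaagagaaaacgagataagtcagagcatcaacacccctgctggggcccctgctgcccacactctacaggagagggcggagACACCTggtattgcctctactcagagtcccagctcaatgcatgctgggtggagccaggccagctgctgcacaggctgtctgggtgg
Capitals in the promoters mark the letters AGGAAG (the core that ETS factors bind), TGTGGT (RUNX factors) and AGGTGT (T-box factors such as Tbx21 and Eomes), searched on both strands. The Cd3e window held 2 AGGAAG and 2 AGGTGT matches, the Cd3d window 2 and 1, and the Cd3g window 0 and 1.

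Cd3e was at -2.25, -2.72 and -3.12 in Het high-fat livers and at -2.04, -2.52 and -3.22 in WT high-fat livers. It was at -1.87, -1.32 and -1.43 in Het low-fat livers and at -1.71, -1.51 and -1.88 in WT low-fat livers. Every high-fat array was below every low-fat array. The log2 difference was -1.16 ± 0.30 (SE) in Het (adjusted p = 0.028), -0.89 ± 0.30 in WT (0.097) and -1.02 ± 0.21 over both (0.0060), about 0.492 of the low-fat level. The call in Het was lost without Het high-fat replicate 2 (adjusted p = 0.063) or 3 (0.070) and without Het low-fat replicate 2 (0.082) or 3 (0.072). With 1 of the 2 Cd3e probes not detected, the fall rests on a single probe.

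Cd3d, another CD3 chain, did not pass in a diet comparison, and its difference from Cd3e was not tested. Its levels were -3.09, -2.24 and -3.41 in Het high-fat livers and -3.43, -3.20 and -3.71 in WT high-fat livers. They were -4.10, -3.40 and -3.14 in Het low-fat livers and -2.11, -2.88 and -3.34 in WT low-fat livers. The diets overlapped in both genotypes, with log2 differences of 0.63 ± 0.37 in Het (adjusted p = 0.259) and -0.67 ± 0.37 in WT (0.280). Cd3g, the further chain, was at -2.89, -3.03 and -3.21 in Het high-fat livers, -3.75, -3.44 and -3.41 in WT high-fat livers, -4.17, -3.13 and -2.96 in Het low-fat livers and -2.27, -2.64 and -3.37 in WT low-fat livers. The WT high-fat arrays lay under the WT low-fat arrays without overlap, and the Het arrays overlapped. The log2 differences of Cd3g were 0.38 ± 0.33 in Het (adjusted p = 0.450) and -0.77 ± 0.33 in WT (0.168).

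**Figure D2:**
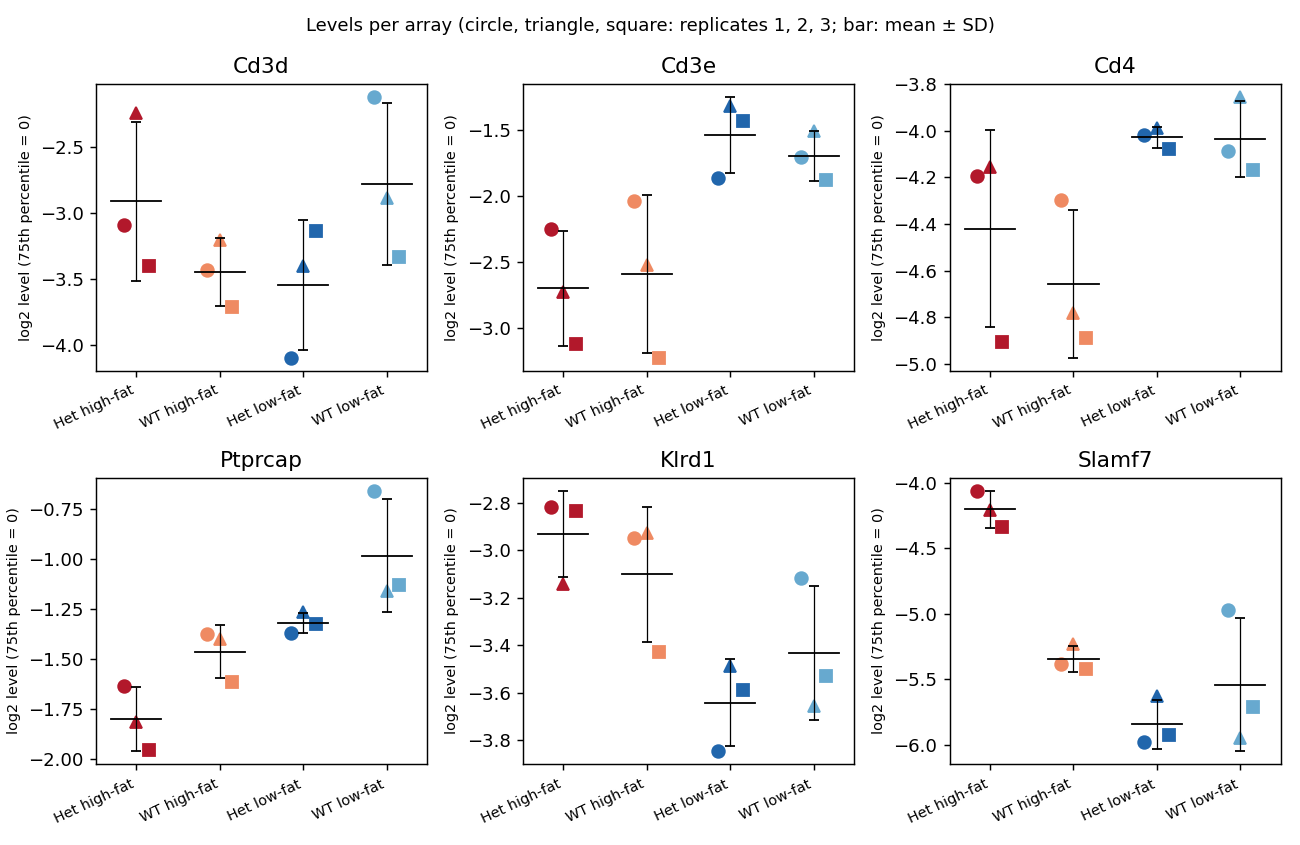
Level per array (log2, 75th percentile of the array = 0) of Cd3d and of the 5 genes that passed in a diet comparison, by group, with the group mean and SD (n = 3 each). Cd3e lies lower on every high-fat array than on any low-fat array, Slamf7 stands at -4.34 to -4.06 on the Het high-fat arrays and at or below -4.97 on all others, and Cd3d overlaps between all groups.

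Of the coreceptors, Cd4 marks helper T cells and also some macrophages and dendritic cells. The probe used lies at chr6:124894079-124894138 (mm7), and a further Cd4 probe was well above background on 1 array.
Cd4 probe used: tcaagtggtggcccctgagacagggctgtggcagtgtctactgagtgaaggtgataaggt
Cd4 was at -4.20, -4.16 and -4.91 in Het high-fat livers against -4.02, -3.99 and -4.08 in Het low-fat livers. It was at -4.30, -4.78 and -4.89 in WT high-fat livers against -4.09, -3.85 and -4.17 in WT low-fat livers. Within each genotype the diets did not overlap, with log2 differences of -0.39 ± 0.21 in Het (adjusted p = 0.226), -0.62 ± 0.21 in WT (0.104) and -0.51 ± 0.15 over both (0.029). The call over both was lost under normexp background correction, where the difference was -0.13 (adjusted p = 0.470). It was also lost without WT high-fat replicate 2 (adjusted p = 0.061) or 3 (0.066), WT low-fat replicate 2 (0.053), or Het low-fat replicate 1 (0.058) or 2 (0.056).

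Cd8a and Cd8b1 encode the chains of CD8, the coreceptor of cytotoxic T cells. Cd8a was at -3.39, -4.56 and -4.16 in Het high-fat livers, -4.64, -4.28 and -5.10 in WT high-fat livers, -5.34, -4.05 and -4.48 in Het low-fat livers and -3.78, -5.19 and -4.37 in WT low-fat livers. All 4 groups overlapped, and the diet difference was 0.58 ± 0.43 in Het and -0.23 ± 0.43 in WT (adjusted p = 0.376 and 0.773). The brighter Cd8b1 probe is placed by the array design on chromosome 5, whereas RefSeq places Cd8b1 on chromosome 6, where the other probe lies. It was the only 1 of the 51 probes on another chromosome than its gene, so both probes are shown.
Cd8b1 brighter probe, chr5:114364254-114364313 (mm7): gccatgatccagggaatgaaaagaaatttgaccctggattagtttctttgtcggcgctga
Cd8b1 other probe, chr6:71355005-71355063 (mm7): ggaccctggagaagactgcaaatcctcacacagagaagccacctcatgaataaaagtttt
The brighter probe was at -1.26, -0.81 and -0.40 in Het high-fat livers, -1.10, -1.54 and -1.40 in WT high-fat livers, -0.88, -0.73 and -1.90 in Het low-fat livers and -1.60, -2.03 and -0.64 in WT low-fat livers, with overlap between the diets. Its diet difference was 0.35 ± 0.39 in Het and 0.08 ± 0.39 in WT. The chromosome 6 probe gave 0.79 ± 0.38 in Het (adjusted p = 0.181) and -0.21 ± 0.38 in WT (0.760). Neither probe passed in a comparison.

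Of the signalling genes, Ptprcap fell over both genotypes and the others did not pass. The Ptprcap probe lies at chr19:4051362-4051421 (mm7).
Ptprcap probe: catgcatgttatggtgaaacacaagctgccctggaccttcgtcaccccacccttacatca
Ptprcap was at -1.63, -1.82 and -1.95 in Het high-fat livers against -1.37, -1.26 and -1.32 in Het low-fat livers. It was at -1.37, -1.40 and -1.61 in WT high-fat livers against -0.66, -1.16 and -1.13 in WT low-fat livers. All high-fat arrays lay under all low-fat arrays, although the closest pair, WT high-fat replicate 1 and Het low-fat replicate 1, both round to -1.37. The log2 difference was -0.48 ± 0.15 in each genotype (adjusted p = 0.055 in Het and 0.085 in WT) and -0.48 ± 0.11 over both (0.0087). Zap70, the kinase recruited to the CD3 chains, had differences of -0.25 ± 0.23 in Het and -0.48 ± 0.23 in WT (adjusted p = 0.477 and 0.216).

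Lck, the kinase that starts the receptor's signal, was at -2.66, -2.97 and -2.91 in Het high-fat livers, -3.10, -2.66 and -3.04 in WT high-fat livers, -3.66, -2.95 and -2.61 in Het low-fat livers and -1.95, -2.38 and -2.83 in WT low-fat livers. The groups overlapped, and the diet difference was 0.23 ± 0.28 in Het and -0.55 ± 0.28 in WT. The adaptor Lat was at -2.95, -2.90 and -3.32 in Het high-fat livers, -3.64, -3.64 and -3.66 in WT high-fat livers, -3.96, -2.49 and -3.44 in Het low-fat livers and -2.83, -3.43 and -3.68 in WT low-fat livers. The Het high-fat arrays lay above the WT high-fat arrays without overlap, and the low-fat arrays spread over a wider range. Sh2d2a, an adaptor that binds Lck, was at -3.31, -3.64 and -4.21 in Het high-fat livers, -3.60, -3.96 and -4.32 in WT high-fat livers, -3.64, -3.09 and -3.24 in Het low-fat livers and -3.38, -3.27 and -3.58 in WT low-fat livers. In WT livers its diets did not overlap, by a difference of -0.55 ± 0.25 (adjusted p = 0.194). Txk, a kinase of the Tec family, differed by 0.22 ± 0.30 in Het and by -0.51 ± 0.30 in WT livers (adjusted p = 0.646 and 0.303).

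Slamf7, a receptor of the SLAM family on NK cells, activated T cells and plasma cells, had the lowest adjusted p of the 30 genes for diet in Het livers and over both genotypes. Both of its probes are shown because both passed in these comparisons.
Slamf7 probe used, chr1:171609261-171609320 (mm7): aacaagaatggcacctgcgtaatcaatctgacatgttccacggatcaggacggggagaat
Slamf7 second probe, chr1:171603413-171603472 (mm7): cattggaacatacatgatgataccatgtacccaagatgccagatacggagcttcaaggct
Slamf7 promoter, chr1:171648950-171649249 (GRCm38.p6), minus strand: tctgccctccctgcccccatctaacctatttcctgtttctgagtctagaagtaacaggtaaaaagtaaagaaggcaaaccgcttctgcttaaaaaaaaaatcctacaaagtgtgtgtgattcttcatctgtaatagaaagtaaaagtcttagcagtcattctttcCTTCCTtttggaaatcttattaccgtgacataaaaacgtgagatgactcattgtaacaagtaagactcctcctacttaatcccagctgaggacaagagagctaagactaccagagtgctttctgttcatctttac
It was at -4.06, -4.21 and -4.34 in Het high-fat livers and at -5.38, -5.23 and -5.42 in WT high-fat livers. It was at -5.98, -5.63 and -5.93 in Het low-fat livers and at -4.97, -5.95 and -5.71 in WT low-fat livers. On this probe the 3 Het high-fat arrays stood above the 9 others. The probe was well above background on 3 Het high-fat, 3 WT high-fat, 0 Het low-fat and 1 WT low-fat arrays, so its level in Het low-fat livers has only a bound.

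For a probe not well above background on any array of a group, the dim level on each array is taken as the higher of the probe's own and the lowest signal well above background there. On that basis, with the processed signals, Slamf7 was at least 2.08-fold higher in Het high-fat than in Het low-fat livers, where the measured means were -4.20 and -5.84 (adjusted p = 0.0040). Under normexp background correction the measured difference was 0.78 in place of 1.64 on the log2 scale and still passed. The bound thus holds only for the processed signals and for that lowest threshold on each array. In WT livers, with 1 low-fat array well above background, the diet difference was 0.20 ± 0.22 (adjusted p = 0.601). Over both genotypes Slamf7 passed with adjusted p = 0.0023. The second probe was at -3.62, -4.96 and -4.33 in Het high-fat livers, -5.51, -4.87 and -5.72 in WT high-fat livers, -5.89, -5.55 and -6.08 in Het low-fat livers and -5.06, -5.86 and -6.08 in WT low-fat livers. It was well above background on 3, 2, 0 and 1 arrays of these groups, so its low-fat level in Het livers has only a bound too. This second probe passed the filter only through the Het high-fat arrays, where its mean was highest, so its calls are not separate support. On it the Het high-fat arrays overlapped with the WT high-fat arrays and lay above all low-fat arrays. Its adjusted p was 0.021 in Het, 0.633 in WT and 0.022 over both.

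The 6 other tested genes of costimulation, inhibition and adhesion did not pass. Cd2, an adhesion receptor of T and NK cells, was at -4.46, -4.39 and -5.01 in Het high-fat livers, -4.73, -4.34 and -4.78 in WT high-fat livers, -5.12, -4.84 and -4.60 in Het low-fat livers and -3.62, -4.18 and -4.57 in WT low-fat livers. On the low-fat diet the Het arrays lay under the WT arrays without overlap. Icos, a costimulator of activated T cells, was at -2.57, -2.23 and -3.65 in Het high-fat livers, -2.29, -2.61 and -2.17 in WT high-fat livers, -3.47, -2.20 and -2.57 in Het low-fat livers and -2.36, -2.16 and -2.73 in WT low-fat livers, with overlap between all groups. The receptors Cd5 and Cd6, which dampen the T cell receptor's signal, had diet differences of 0.05 ± 0.24 and 0.03 ± 0.22 in Het and of -0.36 ± 0.24 and -0.59 ± 0.22 in WT livers. A second Cd6 probe was lower on the high-fat diet over both genotypes (-0.65 ± 0.22, adjusted p = 0.048), where the probe used gave -0.28 ± 0.15 (0.189). Cd27, a costimulator of the TNF receptor family, differed by 0.55 ± 0.46 in Het and -0.40 ± 0.46 in WT livers. Sh2d1a, the adaptor of the SLAM receptors, spread widely between replicates, from -5.28 to -2.78 over the WT low-fat arrays, and its difference was 0.50 ± 0.75 in Het and -1.85 ± 0.75 in WT livers (adjusted p = 0.680 and 0.154).

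The NK receptor gene Klrd1 encodes CD94, which pairs with NKG2 chains to sense MHC class I. Its probe lies at chr6:129621685-129621744 (mm7).
Klrd1 probe: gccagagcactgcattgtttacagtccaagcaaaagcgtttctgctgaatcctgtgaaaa
Klrd1 was at -2.82, -3.14 and -2.83 in Het high-fat livers against -3.85, -3.49 and -3.59 in Het low-fat livers. It was at -2.95, -2.93 and -3.43 in WT high-fat livers against -3.12, -3.66 and -3.53 in WT low-fat livers. The diets did not overlap in Het livers and did in WT livers. The log2 difference was 0.71 ± 0.19 in Het (adjusted p = 0.031), 0.33 ± 0.19 in WT (0.293) and 0.52 ± 0.13 over both (0.016), or 1.44-fold. The call in Het was lost without Het high-fat replicate 1 (adjusted p = 0.109) or 3 (0.068) and without Het low-fat replicate 1 (0.111) or 3 (0.064). With the replicate number as a block its adjusted p in Het was 0.054.

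Klrk1, which encodes the activating receptor NKG2D, differed by 0.34 ± 0.26 in Het and 0.14 ± 0.26 in WT livers (adjusted p = 0.396 and 0.761). Ncr1, which encodes NKp46, a marker of NK cells in the mouse though not of them alone, was not tested. It was at -4.58, -4.44 and -5.69 in Het high-fat livers, -5.05, -5.72 and -5.65 in WT high-fat livers, -6.51, -4.66 and -6.05 in Het low-fat livers and -5.57, -5.82 and -6.96 in WT low-fat livers. It was well above background on 2, 1, 1 and 1 arrays of these groups, so these levels are at or near the limit of detection. The cytokine receptor chains Il2rb, Il2rg and Il7r, through which IL-2, IL-15 and IL-7 act, had diet differences of 0.37 ± 0.39, 0.37 ± 0.30 and 0.12 ± 0.40 in Het livers. In WT livers these were -0.31 ± 0.39, 0.04 ± 0.30 and -0.11 ± 0.40, and none passed.

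Among the genes of the cytotoxic granule 4 of 5 were tested, and all 4 had positive differences in Het and negative ones in WT livers without passing. Nkg7 encodes a membrane protein of the granule.
Nkg7 probe used, chr7:39613682-39613741 (mm7): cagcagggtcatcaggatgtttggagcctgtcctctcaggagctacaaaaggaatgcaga
Nkg7 promoter, chr7:43436888-43437187 (GRCm38.p6), plus strand: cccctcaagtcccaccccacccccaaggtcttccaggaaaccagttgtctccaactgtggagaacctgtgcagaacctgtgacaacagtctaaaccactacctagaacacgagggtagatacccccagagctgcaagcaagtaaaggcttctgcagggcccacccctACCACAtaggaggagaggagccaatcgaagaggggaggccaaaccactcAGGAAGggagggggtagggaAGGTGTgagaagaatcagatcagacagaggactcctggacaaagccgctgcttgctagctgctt
Its promoter is shown because, among the 31 windows matched for 25 of the T and NK cell genes, it alone held the longer T-box letters AGGTGTGA. These contain AGGTGT, and 1.28% of all windows held them. The genes without a window were not searched. Nkg7 was at -0.99, -1.81 and -1.68 in Het high-fat livers and at -2.13, -1.85 and -2.19 in WT high-fat livers. It was at -2.70, -1.97 and -2.12 in Het low-fat livers and at -1.41, -1.86 and -1.83 in WT low-fat livers. The Het arrays lay above the WT arrays on the high-fat diet and below them on the low-fat diet, each time without overlap. On a second Nkg7 probe the genotypes overlapped on both diets. The diet difference was 0.77 ± 0.25 in Het livers, where the diets did not overlap (adjusted p = 0.059), and -0.36 ± 0.25 in WT livers (0.385).

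Prf1, which encodes the pore protein perforin, differed by 0.70 ± 0.30 in Het livers without overlap (adjusted p = 0.136) and by -0.09 ± 0.30 in WT livers (0.878). The protease gene Gzmb differed by 0.60 ± 0.33 in Het and -0.45 ± 0.33 in WT livers (adjusted p = 0.221 and 0.405). Gzma, another granzyme, was at -4.09, -4.81 and -4.69 in Het high-fat livers, -4.63, -4.46 and -5.15 in WT high-fat livers, -4.96, -4.24 and -4.59 in Het low-fat livers and -3.92, -4.91 and -4.81 in WT low-fat livers. Its groups overlapped, with diet differences of 0.07 ± 0.31 and -0.20 ± 0.31 in Het and WT livers.

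Of the transcription factors, Tcf7, which keeps T cells in a naive or memory state, was at -1.95, -2.12 and -2.12 in Het high-fat livers, -2.06, -1.81 and -1.52 in WT high-fat livers, -2.49, -2.43 and -2.05 in Het low-fat livers and -1.94, -1.95 and -2.27 in WT low-fat livers. The diets overlapped, and the difference was 0.26 ± 0.17 in both genotypes (adjusted p = 0.319 in Het and 0.366 in WT). A second Tcf7 probe was higher on the high-fat diet in Het livers (0.46 ± 0.13, adjusted p = 0.037) and over both genotypes (0.43 ± 0.09, 0.0062). Tbx21, which encodes the T-box factor T-bet of Th1 and NK cells, differed by 0.18 ± 0.28 in Het and -0.38 ± 0.28 in WT livers.

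Promoter windows were matched for 25 of the 36 genes, 31 windows in all, since some genes have several. The letters AGGAAG stood in 16 of the 31, against 35.4% of 32851 windows of all genes, TGTGGT in 14 against 16.8%, and AGGTGT in 9 against 13.7%. A match is only a run of letters in the window.

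**Figure D3:**
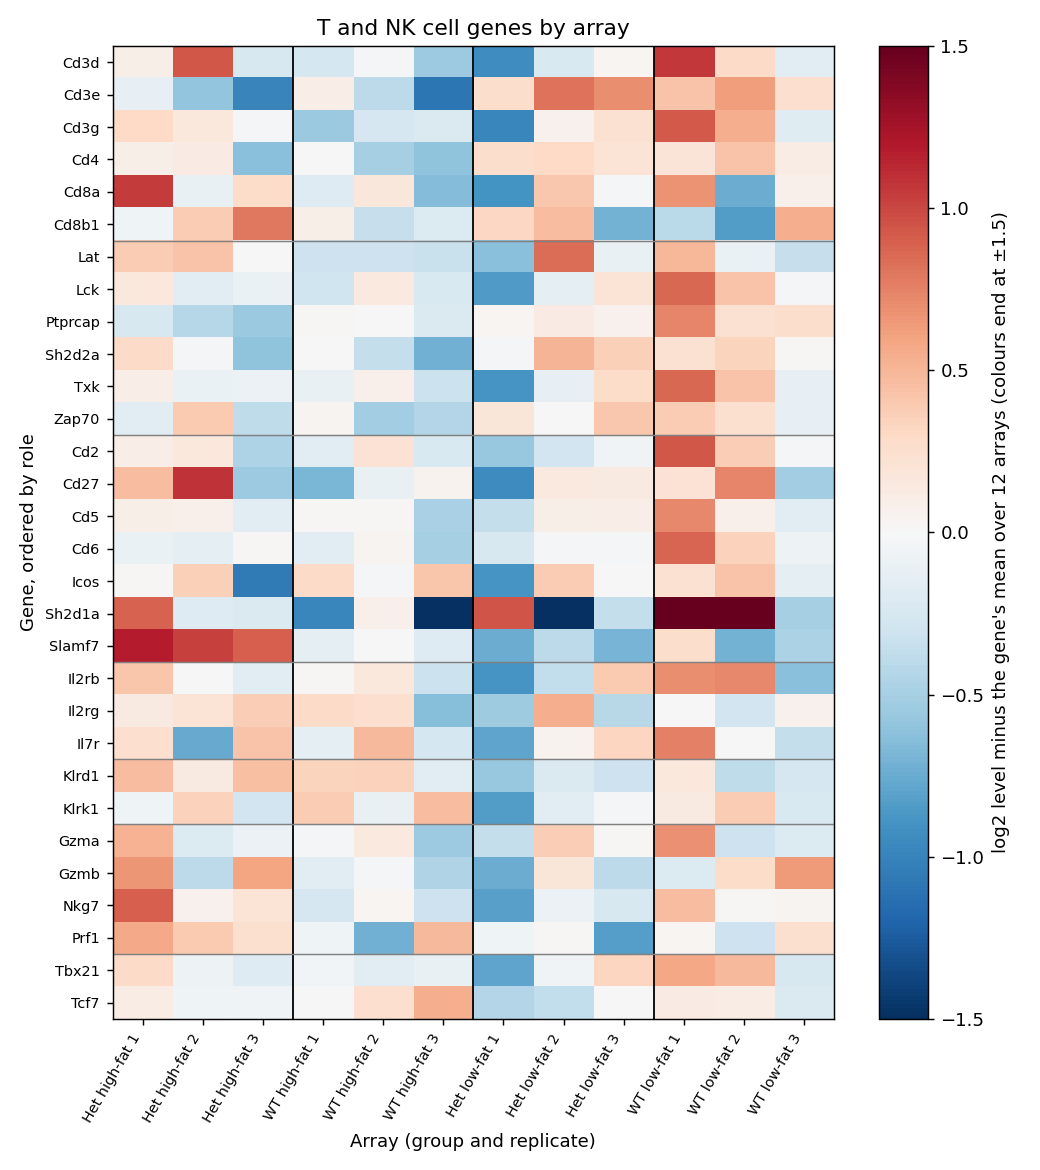
Level of each tested T and NK cell gene (rows, ordered by role) on each array (columns), as the log2 level minus the gene's mean over the 12 arrays (colour scale). Het low-fat replicate 1 is low and WT low-fat replicate 1 high for most genes.

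Within each diet, single arrays were the lowest or the highest for many of the genes, and the reason was not tested. Among the 6 low-fat arrays, Het low-fat replicate 1 was the lowest for 24 of the 30 genes (80.0%), against 14.3% of all genes, and WT low-fat replicate 1 the highest for 16 (53.3%), against 18.4%. The 6 genes for which another array was lowest were Cd3e, Cd4, Cd8b1, Zap70, Prf1 and Sh2d1a. On the chromosome 6 probe of Cd8b1, which was not the probe used, Het low-fat replicate 1 was the lowest, at -3.17. Among the high-fat arrays, Het replicate 1 was the highest for 15 genes (25.8% of all genes) and WT replicate 3 the lowest for 16 (53.3%, against 17.8%). Het low-fat replicate 1 had 58.8% and WT low-fat replicate 1 had 71.6% of its spots well above background. WT low-fat replicate 3 had the lowest share, 58.0%, and was the lowest low-fat array for 3 of the 30 genes, and the part of this in the result was not tested.

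The interaction, the diet difference in Het minus that in WT, had a median of 0.57 over the 30 genes, with 27 above 0, where 54.4% of all genes were. Without WT low-fat replicate 1 its median was 0.37 and without Het low-fat replicate 1 it was 0.33. With both low-fat replicates 1 left out, a choice made after these values were seen, the median was 0.14 and 22 genes were above 0. No gene of all 17042 passed in the interaction (0.0% called). Of the 30 genes, 6 had an unadjusted p under 0.05, against 4.86% of all genes, and 2 did without those 2 arrays. The number was 10 without WT low-fat replicate 3, 8 without WT high-fat replicate 2, and 3 to 6 without any other single array. The lowest p were those of Slamf7 (adjusted p = 0.944), whose low-fat level in Het livers has only a bound so that no size is given, and Nkg7, with 1.13 ± 0.35 (0.956). Cd3g followed at 1.15 ± 0.46. The lowest p among the 3 genes with negative values were those of Cd3e (-0.26 ± 0.42), Icos (-0.13 ± 0.54) and Ptprcap (-0.0012 ± 0.22).

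Genotype itself gave no call on either diet or over both (0.0% of all genes called in each by limma). With high fat, 23 of the 30 genes were above 0 (54.9% of all genes) and 3 had an unadjusted p under 0.05, against 8.66% of all genes. The number was 1 without Het low-fat replicate 3, and 2 to 4 without any other single array. Slamf7 was higher in Het livers by 1.15 ± 0.22 (adjusted p = 0.345) and Nkg7 by 0.57 ± 0.25 (0.567), and Ptprcap was lower, at -0.34 ± 0.15 (0.573), each without overlap. Lat differed by 0.59 ± 0.33, Tcf7 by -0.27 ± 0.17 and Icos by -0.46 ± 0.38. Slamf7 was at 0.47 and Lat at 0.34 under normexp background correction. Nkg7 was at 0.32 without Het high-fat replicate 1, Tcf7 at -0.13 without WT high-fat replicate 3, and Icos at -0.041 without Het high-fat replicate 3 and -0.75 without Het high-fat replicate 2. A slide held 3 Het arrays and, of WT high-fat livers, replicate 3 alone, the lowest high-fat array for 16 of the 30 genes, and within it the differences were 1.22 for Slamf7, 0.70 for Nkg7 and -0.19 for Ptprcap.

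With low fat, 6 of the 30 genes were above 0 (49.1% of all genes) and 5 had an unadjusted p under 0.05, against 2.0% of all genes, and all 5 were lower in Het livers. The number was 10 without WT low-fat replicate 3, 8 without Het low-fat replicate 3, 1 without Het low-fat replicate 1, 0 without WT low-fat replicate 1, and 2 to 4 without any other single array. With slide as a fixed block the difference rests on Het low-fat replicate 1 alone, so no count is given. Cd2 differed by -0.73 ± 0.26, Lck by -0.69 ± 0.28, Nkg7 by -0.56 ± 0.25 and Ptprcap by -0.34 ± 0.15, with adjusted p = 0.9999 for each. Without Het low-fat replicate 1, Lck was at -0.39 and Nkg7 at -0.34, and without WT low-fat replicate 1 Cd2 was at -0.48. The lowest p among the genes higher in Het livers were those of Cd8b1 (0.25 ± 0.39), Cd3e (0.16 ± 0.30) and Sh2d2a (0.09 ± 0.25). On the chromosome 6 probe of Cd8b1 the Het low-fat mean was the lower, at -2.65 against -2.24 in WT low-fat livers. Another slide held 3 WT arrays and, of Het low-fat livers, replicate 1 alone, the lowest low-fat array for 24 of the 30 genes, and within it the differences were -0.99 for Nkg7, -0.38 for Ptprcap and -0.17 for Cd3e. Over both diets 3 genes had an unadjusted p under 0.05, against 4.84% of all genes, and 5 did without WT low-fat replicate 3 or Het low-fat replicate 3. The 3 were Ptprcap (-0.34 ± 0.11), Tcf7 (-0.27 ± 0.12) and Slamf7, again with only a bound in Het low-fat livers, with adjusted p = 0.982, 0.999 and 0.999.

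Further genes of the same cells gave few calls, and over the 4 lists of them 0 passed in a genotype comparison. Of 13 tested further genes of T cell receptor signalling, 1 rose with diet in Het, 0 in WT and 2 over both, where 15.9%, 5.92% and 30.2% of all genes were called. Vav1, an exchange factor for small GTPases, rose by 0.54 ± 0.16 over both genotypes (adjusted p = 0.032). Of 6 tested NK and cytokine receptors 1 rose, Cd244a, which encodes the SLAM family receptor 2B4, by 1.23 ± 0.31 in Het (adjusted p = 0.024) and 1.04 ± 0.22 over both (0.0063). Of 7 tested transcription factors 0 passed in any diet comparison, with 1 of 7 under an unadjusted p of 0.05 in WT.

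Of 17 tested genes of homing, effector function and checkpoints, 3 rose in Het, 1 fell in WT, and 4 rose and 2 fell over both genotypes, near the shares of all genes called in these comparisons. Ccr7, the receptor that guides naive T cells and dendritic cells to lymph nodes, was at -3.38, -3.91 and -3.89 in Het high-fat livers, -3.91, -4.07 and -4.53 in WT high-fat livers, -5.65, -5.22 and -5.02 in Het low-fat livers and -4.56, -4.80 and -4.58 in WT low-fat livers. All high-fat arrays were above all low-fat arrays, by 1.57 ± 0.22 in Het (adjusted p = 0.0042) and 1.02 ± 0.15 over both (0.0014). Pdcd1, which encodes the checkpoint receptor PD-1, was at -3.44, -4.96 and -4.01 in Het high-fat against -7.38, -5.87 and -6.10 in Het low-fat livers. It was well above background on 6 arrays and on 0 Het low-fat arrays, so its level there has only a bound. On the basis used for Slamf7, it was at least 2.17-fold higher in Het high-fat livers (adjusted p = 0.030). The filter can keep such a dim probe through a group where it is bright, which limits this call. The chemokine gene Xcl1 rose by 0.77 ± 0.23 in Het livers (0.047).

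Cxcr6, the chemokine receptor of liver-resident T and NKT cells, was at -2.40, -2.45 and -2.59 in Het high-fat against -2.76, -1.98 and -1.60 in Het low-fat livers, and at -2.41, -2.60 and -2.84 in WT high-fat against -0.85, -1.05 and -1.87 in WT low-fat livers. It fell by 1.36 ± 0.31 on the log2 scale in WT livers (adjusted p = 0.033) and by 0.86 ± 0.22 over both genotypes (0.014). Fasl, the death ligand of cytotoxic lymphocytes, had -1.26 ± 0.28 over both genotypes (0.0081). Over both, the checkpoint receptor Havcr2 rose by 0.68 ± 0.18 (0.019).

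Lists of markers of other cells also held called genes, and their part in the T and NK cell values was not tested. Of 12 pan-leukocyte genes, all tested, 2 rose in Het and 0 in WT livers, and over both genotypes 3 rose and 1 fell, against 15.9%, 5.92% and 30.2% of all genes called. Coro1a, an actin regulator of leukocytes, rose by 0.77 ± 0.22 in Het livers (adjusted p = 0.037). The mean pan-leukocyte level ran from -0.75 to -0.48 in Het high-fat, -1.03 to -0.71 in WT high-fat, -1.21 to -0.60 in Het low-fat and -0.88 to -0.58 in WT low-fat livers. Het low-fat replicate 1 was lowest there too. Het high-fat replicate 1 was highest.

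Of the B and plasma cell list 10 of 14 were tested, and Cd72 alone passed, rising by 1.07 ± 0.25 in Het livers (0.020). Its mean level was -1.15 in WT low-fat replicate 1 and between -2.99 and -1.99 on the 11 other arrays. Of 12 macrophage and Kupffer cell genes, all tested, Cd68 rose by 0.76 ± 0.20 in Het livers (0.032) and Timd4, a marker of resident Kupffer cells, fell by 2.25 ± 0.62 on the log2 scale (0.035). Of 7 tested neutrophil genes of 10, Csf3r had -0.80 ± 0.21 in Het livers (0.030), and Ltf, Mpo and Camp rose over both genotypes. Camp was well above background on 4 arrays and on no low-fat array, and Ltf on no Het low-fat array, so those levels have only a bound. A second Ltf probe gave 1.63 ± 0.61 over both genotypes and did not pass (adjusted p = 0.065). The mean neutrophil level was -1.42 in WT high-fat replicate 2 and between -4.29 and -2.70 on the others. Of 6 tested dendritic cell genes of 8, Itgax rose by 1.86 ± 0.39 (0.013) in Het livers, while its second probe gave -0.09 ± 0.39. Bst2 rose by 0.46 ± 0.14 in Het livers (0.044), and Zbtb46 had -0.66 ± 0.14 (0.012). Of its other probes the 2 that passed the filter gave -0.14 ± 0.23 and -0.04 ± 0.23.

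**Figure D4:**
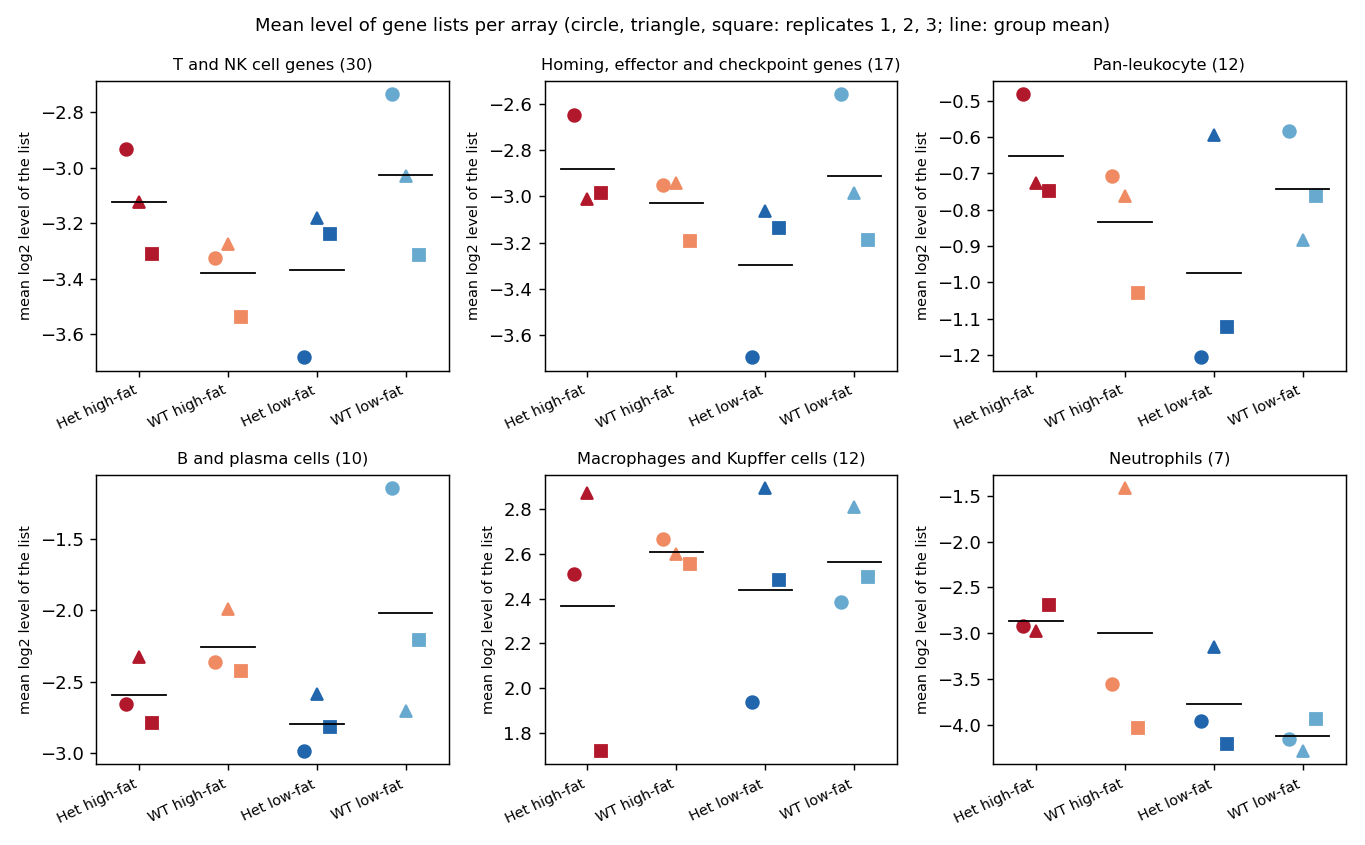
Mean log2 level per array of the T and NK cell genes and of 5 further lists, with the number of genes tested in brackets, and the group mean as a line (n = 3 each). The mean of the T and NK cell genes runs from -3.68 in Het low-fat replicate 1 to -2.74 in WT low-fat replicate 1, and the B cell and neutrophil lists each have 1 array far above the others.

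The mean level of the 30 T and NK cell genes was -3.12 ± 0.19 in Het high-fat, -3.38 ± 0.14 in WT high-fat, -3.37 ± 0.27 in Het low-fat and -3.03 ± 0.29 in WT low-fat livers (SD, n = 3 each). Within each genotype the arrays of the diets overlapped.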

How the data were processed

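Feature Extraction 9.5 by Agilent made the scanner tables, as the submitters' processing notes record, and the 12 deposited tables hold intensity values. The processed intensity is, per the file headers, the brightness left once background and trends across the array are removed, with no step between arrays recorded. The deposited series table held the same values spot by spot. Per the file headers, flags of 0 or 1 mark spots well above background, saturated or outlying.

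Processed intensities were taken as log2 and the log2 75th percentile of the non-control spots of each array was subtracted. Control spots and 1344 outlier spots were left out, and spots of a probe were averaged. Of 41174 probes 25296 passed the filter, which asked that all arrays of 1 group or more be well above background and that every group have 2 or more values. The brightest kept probe stood for each of 17042 genes, named through RefSeq accession or symbol, and 8455 probes kept their name in the array design. Probe coordinates are those of the design (mm7, per the file headers), and promoters are RefSeq's on GRCm38.p6.

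In limma 3.58.1 (R 4.3.3) 1 model held the means of the 4 groups, and tests were two-sided, with p-values adjusted by Benjamini-Hochberg over all of these genes and a threshold of 0.05. The script was tested on simulated data. The 7 comparisons were diet in Het, in WT and over both genotypes, genotype with high fat, with low fat and over both diets, and the interaction. Replicate numbers did not pair the arrays: of 18 same-numbered pairs, 3 had deviations correlated above 0.1.

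The genes and the further lists were chosen with earlier results of these data known. Named genes are those that passed in a comparison, otherwise the 3 of lowest p in each direction, and Cd3e, Cd4, Cd8a, Cd8b1, Ncr1 and Gzma. Of further lists up to 4 called genes of lowest p per comparison are named, apart from some that are not reported here. Alternatives changed the background correction, the scaling, the filter, the probe rule and the blocks, removed a trend with GC content and brightness, or left out arrays.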

Additional observations from a re-analysis of the deposited data

Results flagged for a closer look

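Nkg7 stood out because its genotype difference ran in opposite directions on the 2 diets. On its brighter probe every high-fat Het array was above every high-fat WT array and every low-fat Het array was below every low-fat WT array. The interaction was 1.12781 on the log2 scale (1.13 ± 0.35, SE), and this test of the difference did not pass after adjustment over all genes (adjusted p = 0.956). On the second Nkg7 probe the genotypes overlapped on both diets, and it gave 1.003 ± 0.41 (adjusted p = 0.910). Het low-fat replicate 1 was the lowest and WT low-fat replicate 1 the highest of the low-fat arrays for Nkg7.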

How the results depend on the processing

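Called T and NK cell genes numbered 3 for diet in Het livers. Over 23 alternatives the number was 5 under median scaling, 5 with the GC and brightness trend removed, 6 with slide as a random block, 1 with no filter on dim probes and 1 with both low-fat replicates 1 left out, which was chosen after seeing the data. Leaving out each array in turn gave 1 to 4. For diet in WT livers the number was 0, and it was 1 with the trend removed (Cd4), 5 with slide as a random block, and 0 to 0 over the arrays left out. For diet over both genotypes it was 5, and it was 8 with the trend removed, 9 with slide as a random block and 4 to 6 over the arrays left out. The slide correlation was -0.18, which narrows the errors of the random block. Slamf7 in Het livers and over both genotypes, and Cd3e, Klrd1 and Ptprcap over both, passed under every alternative run. Cd3e in Het was lost in 6, Klrd1 in Het in 8 and Cd4 over both in 8 of them. The genotype comparisons and the interaction gave 0 called T and NK cell genes throughout.

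Signs turned only in differences that had not passed. Genotype on the low-fat diet was -0.075 for Cd8b1 as the mean over its probes, and -0.17 for Cd3e and -0.23 for Sh2d2a with slide as a fixed block. That block leaves Het low-fat replicate 1 alone against the WT low-fat arrays. Of the WT high-fat arrays it leaves replicate 3 alone against the Het arrays. Genotype over both diets was -0.021 for Lat with that block, and the interaction was 0.077 for Ptprcap under normexp background correction. Over the arrays left out, singly or both low-fat replicates 1, Slamf7 ran from -0.0061 to 0.48 for diet in WT, and with genotype on low fat Cd8b1 ran from -0.051 to 0.64 and Sh2d2a from -0.029 to 0.26. The interaction ran from -0.58 to 0.015 for Cd3e, -0.52 to 0.29 for Icos and -0.19 to 0.088 for Ptprcap. The causes were not tested. Median scaling moved the median of all genes for diet in WT to 0.07 and that for genotype with high fat to -0.09.

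Replicate numbers are shared only as numbers: 3 of 12 arrays correlated best with an array of their own number. With the replicate block 2 genes were called for diet in Het, 0 in WT and 5 over both. Signal over background limits the 10 genes not detected on every array.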
